A study of Glycine max with 10 samples.

Results

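The comparison covers the 4 libraries of soybean (Glycine max) leaf RNA collected at day 1, out of 10 libraries in the series. They were chosen by their labels alone: day 1, with or without the inducer. In the susceptible cultivar, labelled LD12-15838R (the paper spells it LD12-1583R), the inducer library came from plants given 50 biotype 2 aphids and then 15 biotype 1 aphids, and the control library from plants without aphids. The resistant cultivar, LD12-15813Ra, which carries the resistance gene Rag1, had an inducer library and a control library of the same kind. The RNA of 3 replicates was combined in every library, and with a single library on each side an inducer difference has no replicate check. A treatment with biotype 1 alone was analysed at day 11 only. At day 1 the design therefore cannot separate the inducer from the biotype 1 aphids that followed it, and its comparison is aphid-infested against aphid-free leaves. The interval between the aphid biotypes, and the event from which the days were counted, are not given in the labels. Both cultivars were grown in a greenhouse.

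Soybean aphids draw sap from the phloem with a stylet that they push between the cells of the leaf. Rag1 soybean resists the avirulent biotype 1, and the virulent biotype 2 can live on it. Induced susceptibility is the name for the gain that an earlier colony brings to later aphids on the same plant, and the study used biotype 2 as that earlier colony. The comparison at day 1 asks which leaf genes differed soon after infestation, and whether they differed in the same direction in both cultivars.

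The 4 libraries held between 23554300 and 25387621 estimated counts. Levels are given in CPM, counts scaled to a common library size by edgeR's TMM factors over the 4 libraries. These factors were 0.942 in the susceptible inducer library, 1.11 in the susceptible control, 1.21 in the resistant inducer library and 0.79 in the resistant control. A gene was called higher or lower when its CPM + 0.5 differed at least 2-fold and 1 library of the pair reached 5 CPM, which is between 97.1 and 143.8 counts. Calling by size stands in for a test here, and 37468 genes (66.9% of the table) with over 0.5 CPM in at least 1 of the 10 libraries were read. The genes are named by the identifiers in the table, and 0 of 55983 identifiers matched the reference gene table, so no gene function or sequence is given and leaf marker genes were not checked. The chromosome is the field in the identifier (annotation Wm82.a2.v1).

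In genes with all-or-none patterns the libraries did not group by labelled cultivar. Of 99 genes with an all-or-none pattern over the 10 libraries (a gap of at least 8-fold between 2 sides), 0 parted the libraries by labelled cultivar, and 61 set the day 11 libraries of the susceptible label, with the day 1 libraries of the resistant label, apart from all others. In 28 of the 99 genes the resistant inducer and control libraries of day 1 lay on different sides, and in 24 of these the inducer library sat with all 3 day 11 libraries of the susceptible label. The susceptible inducer and control libraries of day 1 lay on different sides in 3. The 61 genes also group the day 1 libraries of the susceptible label with the day 11 libraries of the resistant label. They do not show at which day the labels are in doubt. The names susceptible and resistant below are those of the labels. Values of the susceptible pair rest on neither of the resistant libraries, apart from the shared TMM scaling. The resistant pair, and every class that uses it, cannot be computed without them.

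In the susceptible pair, 762 genes (2.03%) were higher and 925 (2.47%) lower with the inducer than in the control. In the resistant pair, 2769 genes (7.39%) were higher and 4420 (11.8%) lower, so that 7189 genes were called there and 1687 in the susceptible pair, a 4.26-fold difference in number. By the same rule the susceptible pair of day 11 held 1225 higher (3.27%) and 1103 lower genes (2.94%), and the resistant pair of day 11 held 388 higher (1.04%) and 1218 lower genes (3.25%). The resistant pair of day 1 thus held more called genes than any of the other 3 inducer pairs. Among genes with at least 5 CPM in the pair, the middle 50% of log2 folds lay between -0.28 and 0.31 in the susceptible pair and between -0.76 and 0.48 in the resistant pair, with SDs over genes of 0.589 and 1.17.

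The division into higher and lower depended on the scaling. With library totals in place of TMM factors the median log2 fold of all genes was -0.19 in the susceptible pair and 0.53 in the resistant pair, and with TMM it was 0.0 and 0.01. The counts were then 426 higher and 1533 lower in the susceptible pair, where the share of higher genes was 21.7% against 45.2% with TMM. They were 6977 higher and 1891 lower in the resistant pair, where that share was 78.7% against 38.5%.

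A total of 956 genes were called in both pairs, and 337 of them (35.3%) differed in the same direction while 619 (64.7%) differed in opposite directions. With library totals 69.9% were opposite. Of the 762 genes higher in the susceptible pair, 44 (5.77%) were also higher in the resistant pair and 431 (56.6%) were lower there. Among the 21562 genes with at least 5 CPM in a library of both pairs, 8.12% were higher and 19.4% lower in the resistant pair. Of the 925 genes lower in the susceptible pair, 293 (31.7%) were lower and 188 (20.3%) higher in the resistant pair. Read the other way, the 44 genes were 1.59% of the 2769 higher in the resistant pair, and the 293 were 6.63% of the 4420 lower there. The background in the susceptible pair over the same 21562 genes was 3.27% higher and 3.85% lower. Only 1750 of the 2769 and 4180 of the 4420 were among the 21562 genes, as were 706 of the 762 and 830 of the 925. The rest lay under 5 CPM in the other pair and could not be called there, which lowers the shares of the lists. Across the 21562 genes Pearson's r between the log2 folds of the pairs was -0.201. The points share the 4 libraries and are not independent, and no test was made.

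**Figure D1:**
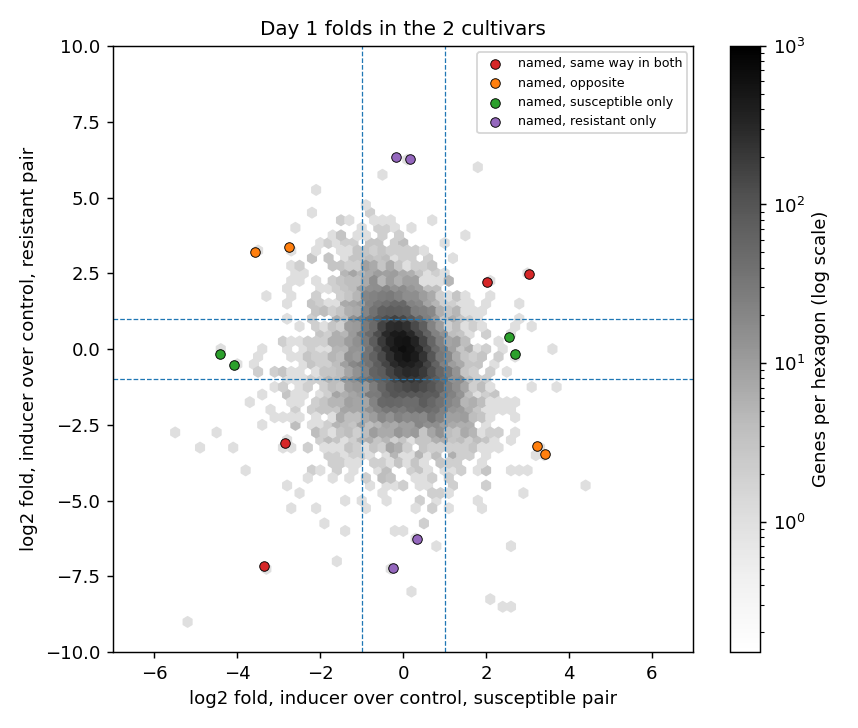
Each hexagon counts genes by their log2 fold of inducer over control in the susceptible pair (x axis) and in the resistant pair (y axis), for the 21562 genes with at least 5 CPM in a library of both pairs; dashed lines mark 2-fold and coloured points the named genes. The cloud is taller than wide (SDs 1.17 and 0.589 over the genes of each pair) and leans to opposite directions, r = -0.201.

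**Figure D2:**
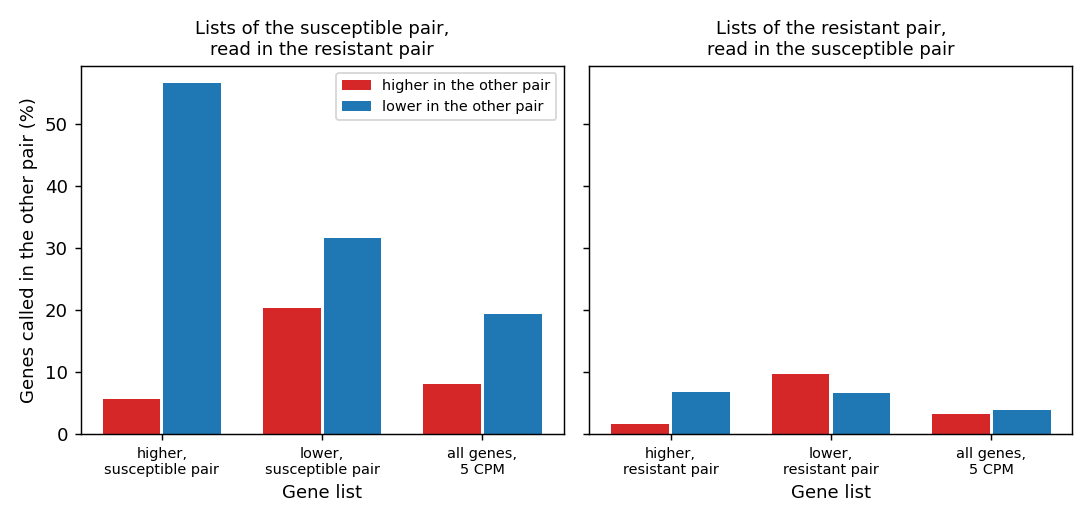
Bars give the percentage of each day 1 list that was called higher (red) or lower (blue) in the other pair, beside all 21562 genes with at least 5 CPM in both pairs. The lists are whole and include genes under 5 CPM in the other pair, which could not be called there. Of the genes higher in the susceptible pair 56.6% were lower in the resistant pair, against 19.4% of all these genes.

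The distances between the 4 libraries showed the same arrangement. The susceptible inducer library lay as near to the resistant control (1505 of 21562 genes at least 2-fold apart, r = 0.938 across genes) as to its own control (1536 genes, r = 0.923). The resistant inducer library lay farther from its own control than any other pairing of the 4 (5930 genes, r = 0.756). It was nearer to the susceptible control, with 3006 genes and r = 0.856. The sum of squares of the log2 values was divided into its 3 contrasts. Of it, 35.0% went with the mean inducer fold of the pairs, 16.2% with the labelled cultivar and 48.8% with the difference between the folds. A gene that differed in 1 pair only adds equally to the mean fold and to the difference, so neither share counts only same-way or only opposite genes. The difference between the folds was the largest of the 3 contrasts in 10802 genes (50.1%) and the mean fold in 6889 (31.9%).

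The genes higher with the inducer in both cultivars were few and their differences small. The 44 genes had a median fold of 2.38 in the susceptible pair and 2.69 in the resistant pair, and 2 of them reached 4-fold in both. The median of their mean levels was 14.5 CPM. Glyma.17G212200, on chromosome 17, had 24.7 CPM in the susceptible inducer library, against 2.60 CPM in its control, and 27.8 CPM in the resistant inducer library, against 4.58 CPM in its control. It was 9.52-fold higher in the susceptible pair (95% counting interval 7.4 to 12.4) and 6.06-fold in the resistant pair (4.86 to 7.63). Glyma.14G115500, on chromosome 14, had 102 CPM with the inducer and 25 CPM in the control in the susceptible cultivar, and 219 CPM and 47.1 CPM in the resistant one. These are folds of 4.09 (3.75 to 4.46) and 4.65 (4.34 to 4.99). In both genes each inducer library lay above both controls. Intervals cover counting error only, and they leave out differences between plants and pools.

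The genes lower with the inducer in both cultivars were more numerous and differed more. The 293 genes had a median fold of 2.81 in the susceptible pair and 3.92 in the resistant pair, with a median level of 20.7 CPM, and 40 reached 4-fold in both. Glyma.13G084000, on chromosome 13, had 12.1 CPM in the susceptible inducer library, against 128 CPM in its control, and 2.85 CPM in the resistant inducer library, against 477 CPM in its control. It was 10.6-fold lower with the inducer in the susceptible pair (9.37 to 12.0) and 167-fold lower in the resistant pair (135 to 211). Glyma.18G289100, on chromosome 18, had 26.0 CPM with the inducer and 189 CPM in the control in the susceptible cultivar, and 15.6 CPM and 136 CPM in the resistant one. Its differences were of like size in the pairs, 7.27-fold lower (6.68 to 7.91) and 8.75-fold lower (7.92 to 9.70). Both controls stood above both inducer libraries in the 2 genes. Less RNA per cell and fewer cells of a type cannot be told apart in pooled leaf tissue.

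Opposite differences formed the larger class. The 431 genes higher in the susceptible pair and lower in the resistant pair had median folds of 2.46 and 3.65 and a median level of 23.6 CPM. Glyma.20G065300, on chromosome 20, had 26.7 CPM in the susceptible inducer library, against 2.03 CPM in its control, and 1.43 CPM in the resistant inducer library, against 20.6 CPM in its control. Glyma.15G213600, on chromosome 15, followed with 26.9 and 2.45 CPM in the susceptible inducer and control libraries, and 2.23 and 24.6 CPM in the resistant inducer and control libraries. In both genes the susceptible inducer library was close to the resistant control, and the susceptible control close to the resistant inducer library. Their folds lay between 11.0 and 14.4.

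The 188 genes lower in the susceptible pair and higher in the resistant pair had median folds of 2.57 and 4.14 at a median level of 13.2 CPM. Glyma.13G076900, on chromosome 13, had 4.97 CPM in the susceptible inducer library, against 64.6 CPM in its control, and 107 CPM in the resistant inducer library, against 11.3 CPM in its control. Glyma.07G051500, on chromosome 7, had 2.05 CPM and 16.7 CPM in the susceptible inducer and control libraries, and 40.5 CPM and 3.5 CPM in the resistant ones. The balance of the 2 directions depended on the scaling. With library totals 179 genes were higher in the susceptible pair and lower in the resistant pair, against 431 with TMM, and 523 were lower in the susceptible pair and higher in the resistant pair, against 188. The difference between the pairs was tested in a fit to all 10 libraries with an inducer by cultivar term at day 1 (2 residual degrees of freedom). That fit matches the 4 day 1 libraries exactly, so its spread came from the day 11 libraries. There it is the disagreement between the cultivars in their treatment differences, and not a spread of replicates. The cultivar labels of day 1 or of day 11 are in doubt. edgeR called 0 of 37468 genes (0%) at an adjusted value under 0.05, with 7737 at an unadjusted p under 0.05. DESeq2 with the same terms called 2106, and edgeR with library totals called 769.

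A gene was counted in the susceptible pair only when it was called there and lay under 1.5-fold in the resistant pair. This held for 412 genes, 163 higher and 249 lower with the inducer, with median folds of 2.37 and 2.50 in the susceptible pair. With library totals the class held 117 higher and 450 lower genes. Another 319 genes called in the susceptible pair lay between 1.5-fold and the calling rule in the resistant pair. Glyma.19G102400, on chromosome 19, had 16.6 CPM with the inducer and 2.14 CPM in the control in the susceptible cultivar, 7.77-fold higher (5.86 to 10.5), and 10 CPM and 11.2 CPM in the resistant cultivar. Glyma.16G049000, on chromosome 16, had 166 CPM with the inducer and 27.8 CPM in the control in the susceptible cultivar, and 126 CPM and 96.0 CPM in the resistant cultivar. In these genes the susceptible control was the low library of the 4.

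Among the lower genes of this class, Glyma.17G066500, on chromosome 17, had 2.68 CPM in the susceptible inducer library, against 67.3 CPM in its control, 25.2-fold lower (19.6 to 32.8). It had 11.5 CPM in the resistant inducer library, against 12.8 CPM in its control. Glyma.04G069500, on chromosome 4, had 5.14 CPM and 95 CPM in the susceptible inducer and control libraries, 18.5-fold lower (15.4 to 22.3), and 13.6 CPM and 19.8 CPM in the resistant ones. Here the susceptible control was the high library and the susceptible inducer library the low one, with the resistant libraries between them.

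In the resistant pair only, 4463 genes were called, 1838 higher and 2625 lower with the inducer, with median folds of 2.79 and 2.69. With library totals the order of the directions turned, and the class held 4635 higher and 976 lower genes. A further 1770 genes called in the resistant pair lay between 1.5-fold and the calling rule in the susceptible pair. Glyma.17G259500, on chromosome 17, had 106 CPM in the resistant inducer library, against 0.824 CPM in its control (16 counts), 128-fold higher (79.0 to 225). It had 2.55 CPM in the susceptible inducer library and 2.94 CPM in the susceptible control. Glyma.06G043000, on chromosome 6, had 162 CPM and 1.60 CPM in the resistant inducer and control libraries, 101-fold higher (71.2 to 149), and 33.1 CPM and 29.5 CPM in the susceptible ones. In both genes the resistant inducer library was the high one of the 4 and the resistant control the low one. Scaled over all 10 libraries, Glyma.17G259500 had 111 CPM in that inducer library, and 21.3 CPM (inducer), 308 CPM (biotype 1 alone) and 232 CPM (control) in the susceptible libraries of day 11.

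Glyma.15G062700, on chromosome 15, had 1.74 CPM in the resistant inducer library, against 331 CPM in its control, 190-fold lower (144 to 257), with 28.8 CPM and 34.3 CPM in the susceptible inducer and control libraries. Glyma.03G015800, on chromosome 3, had 0.417 CPM (12 counts) and 70.3 CPM in the resistant inducer and control libraries, 169-fold lower (96.2 to 327), with 5.64 CPM and 4.40 CPM in the susceptible ones. The susceptible libraries lay between the resistant ones in both genes. Of all genes called in the resistant pair, 42 of the higher had under 3 counts in the control and 11 of the lower had under 3 counts in the inducer library. In the susceptible pair there were 2 and 2.

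**Figure D3:**
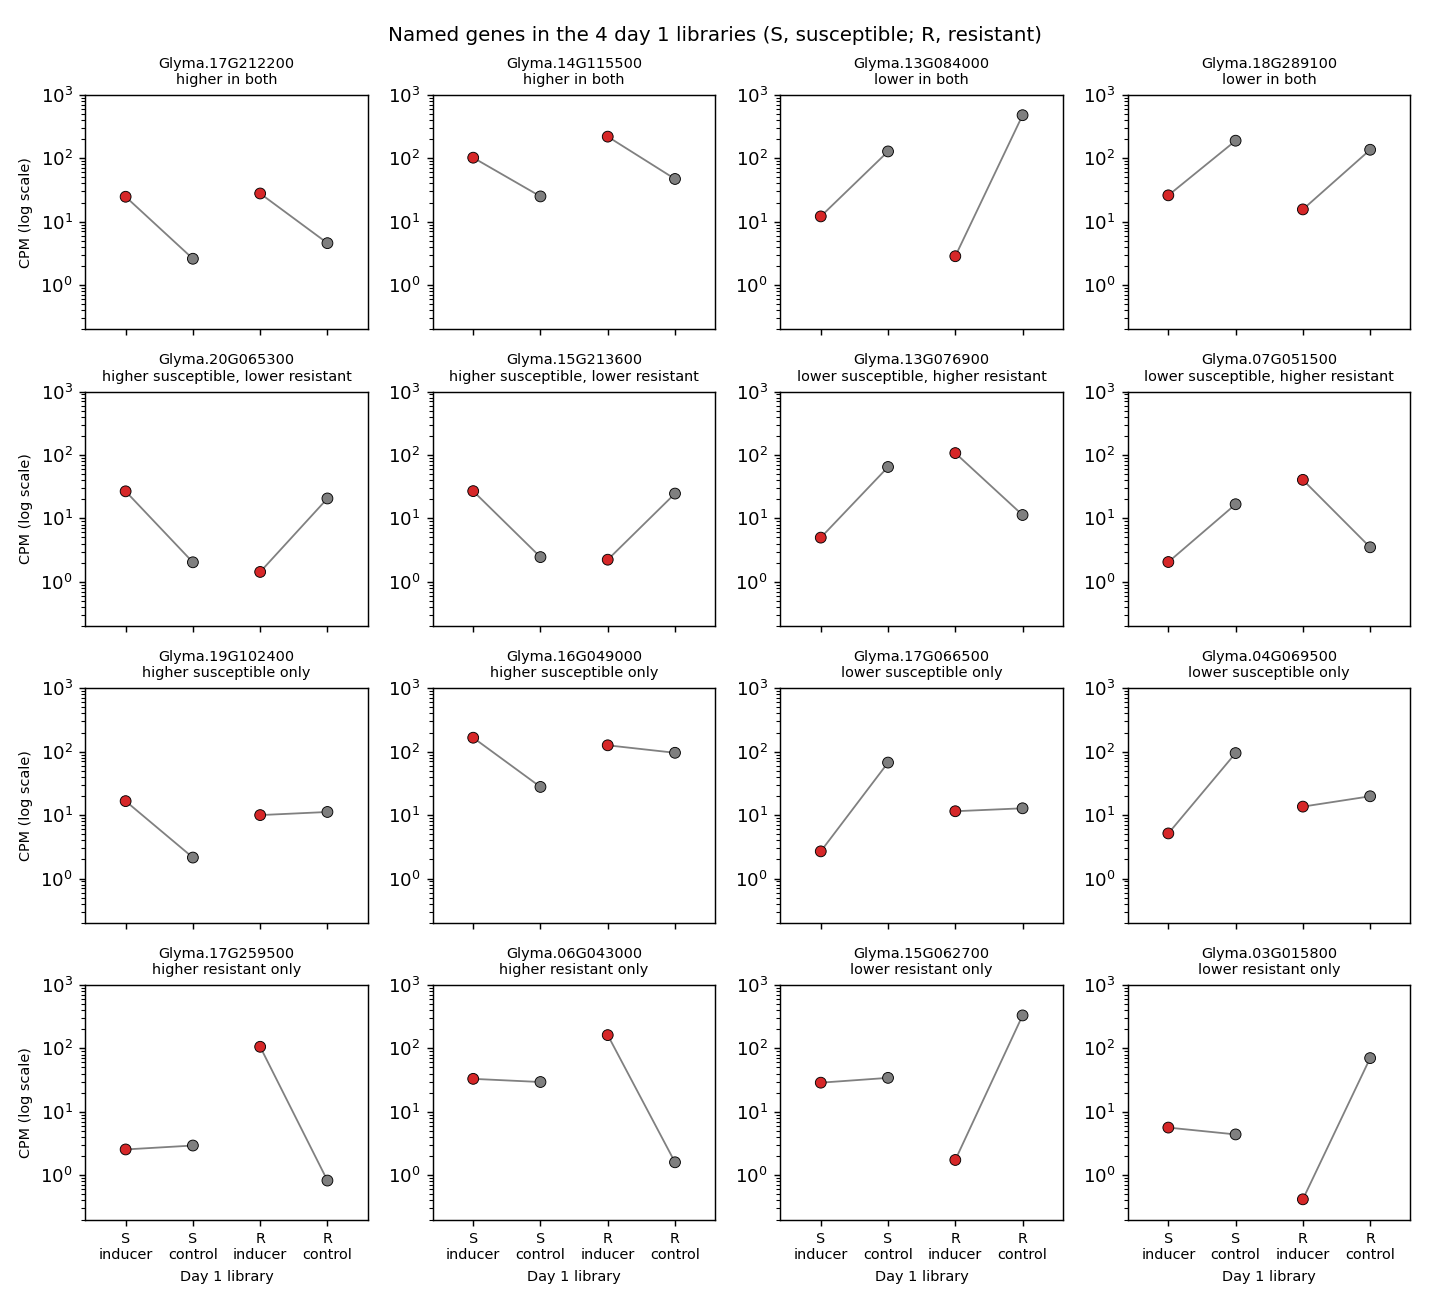
CPM on a log axis of the 16 named genes in the susceptible (S) and resistant (R) libraries of day 1, inducer in red and control in grey, with a line joining each pair; each point is 1 pooled library. The upper row shows genes that differed in the same direction in both pairs, such as Glyma.18G289100 with 26.0 and 189 CPM and with 15.6 and 136 CPM, and the next row genes with opposite directions.

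Called genes were unevenly spread over levels of expression. Of the 168 genes that reached 1000 CPM in the resistant pair, 119 (70.8%) were lower and 11 (6.55%) higher with the inducer, and of the 1938 genes between 100 and 1000 CPM 50.4% were lower. Of the 12489 genes between 5 and 20 CPM, 11.0% were lower and 12.7% higher. In the susceptible pair 33 of 120 genes over 1000 CPM (27.5%) were higher and 2 (1.67%) lower with the inducer. With library totals the shares over 1000 CPM were 38.1% lower and 11.3% higher in the resistant pair, and 1.67% lower and 10.8% higher in the susceptible pair. The most abundant genes thus leaned to lower in the resistant pair and to higher in the susceptible pair under both scalings. The 4420 genes lower in the resistant pair took 25% of all counts in the inducer library and 55.2% in the control. The 10 most abundant genes of each library took 8.82% of counts in the susceptible inducer library, against 5.81% in its control, and 4.6% in the resistant inducer library, against 10.4% in its control. The part of these few genes in the other differences was not tested.

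With 1 library per condition, the other 9 libraries were used to see which member of a pair lay at the end. The shares cover called genes only, whose inducer and control libraries differ by the calling rule. That rule alone favours a place at an end, and the shares over all genes were not computed. Most of the other libraries are from day 11. Of the 925 genes lower in the susceptible pair, the control alone lay at the end, above all 9 others, in 476 (51.5%). The inducer library alone was below all 9 others in 106 (11.5%), and 72 had both at the ends. Of the 762 higher genes the inducer library alone was above all others in 269 (35.3%). The control alone was below all others in 105 (13.8%), and 61 had both at the ends. In the resistant pair it was the control that more often lay at the end. Of the 4420 lower genes, the control alone was above all others in 1929 (43.6%), and the inducer library alone was below all others in 597 (13.5%). Of the 2769 higher genes, the control alone was below all others in 1024 (37.0%), and the inducer library alone was above all others in 455 (16.4%). Both libraries lay at the ends in 959 (21.7%) of the lower and 498 (18.0%) of the higher genes.

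**Figure D4:**
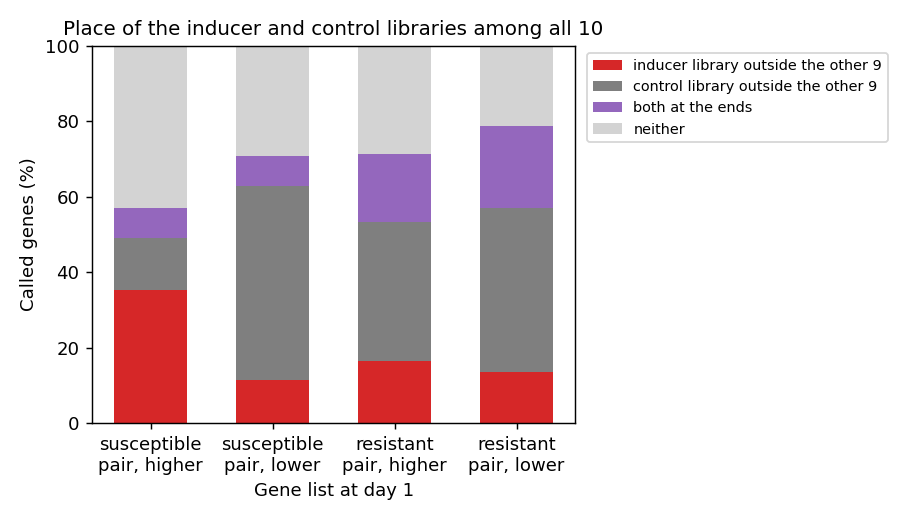
Stacked bars divide the called genes of each day 1 list by whether the inducer library, the control library, both or neither lay outside the range of the other 9 libraries, in percent of the list. In 3 of the 4 lists the control alone was at the end more often than the inducer library alone, as with 43.6% and 13.5% in the genes lower in the resistant pair. Shares over all genes were not computed.

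The day 11 libraries share no sample with those of day 1, and the same genes were looked up there. Of the 293 genes lower in both pairs at day 1, 143 (48.8%) were lower and 0 higher with the inducer in the resistant pair at day 11, with a median log2 fold of -1.02. In the susceptible pair at day 11, 10 (3.41%) were lower and 44 (15.0%) higher, with a median of 0.34. Among the 21562 genes with at least 5 CPM in both day 1 pairs, 5.24% were lower and 1.25% higher in the resistant pair at day 11, and 3.16% lower and 4.85% higher in the susceptible pair. Glyma.18G289100 had 26.3 CPM in the resistant inducer library of day 11, against 195 CPM in its control, and 48.5 CPM in the susceptible inducer library of day 11, against 22.9 CPM in its control, scaled over all 10 libraries. Of the 44 genes higher in both pairs at day 1, 17 (38.6%) were higher and 4 lower in the resistant pair at day 11, and 6 (13.6%) higher and 14 (31.8%) lower in the susceptible pair. The named genes of this class were not higher at day 11 (scaled over all 10 libraries). Glyma.14G115500 had 87.9 CPM in the susceptible inducer library of day 11, against 726 CPM in its control. It had 8.67 CPM and 15.7 CPM in the resistant inducer and control libraries. Glyma.17G212200 had 340 CPM in the susceptible control of day 11, above its inducer library. In the resistant pair it had 0.726 CPM (inducer) and 0.844 CPM (control). In both cultivars at day 11, 4 of the 44 were higher and 7 of the 293 lower. The 2625 genes lower in the resistant pair only also leaned the same way in the resistant pair at day 11, where 550 (21.0%) were lower and 4 (0.152%) higher, while the susceptible pair of day 11 had 136 lower (5.18%) and 156 higher (5.94%). The 1838 higher in the resistant pair only had 75 higher (4.08%) and 18 lower (0.979%) in the resistant pair of day 11, and 115 higher (6.26%) and 194 lower (10.6%) in the susceptible pair. Whether the cultivars differed in this was not tested, and the cultivar labels of day 1 or of day 11 are in doubt.

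**Figure D5:**
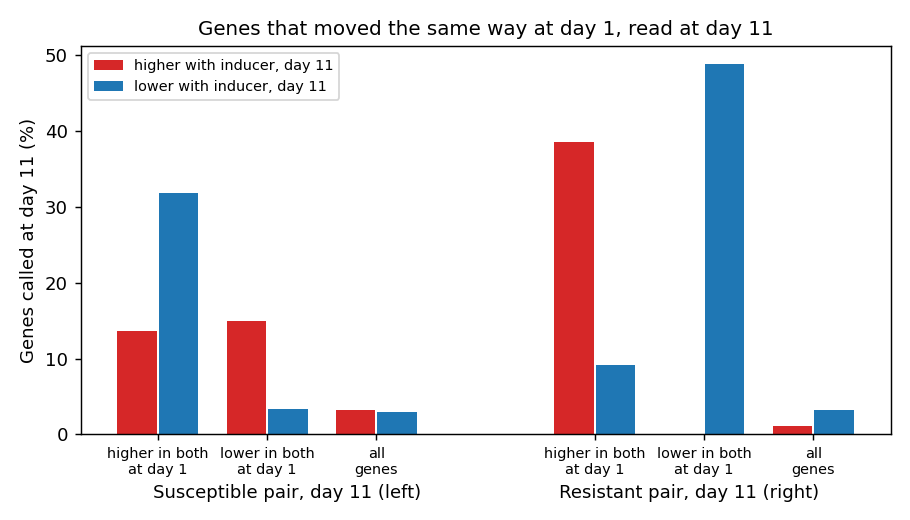
Bars give the percentage of genes called higher (red) or lower (blue) with the inducer at day 11, for genes higher in both pairs at day 1 (44), lower in both pairs at day 1 (293) and all 37468 genes, in the susceptible pair on the left and the resistant pair on the right. The 293 genes were lower again in 48.8% of cases in the resistant pair and in 3.41% in the susceptible pair.

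A test over the pairs was made with edgeR's quasi-likelihood model of cultivar and treatment on the 4 libraries, which takes its spread from the disagreement between the pairs (1 residual degree of freedom). It called 0 of 37468 genes (0%) at an adjusted value under 0.05, with 799 at an unadjusted p under 0.05. DESeq2 on the same design called 67 genes (0.179%), 9 higher and 58 lower with the inducer, of which 2 and 51 were among the genes higher and lower in both pairs. The common biological coefficient of variation was 0.491. A fit to all 10 libraries with a cultivar by day term (3 residual degrees of freedom) also called 0 genes for the inducer at day 1, with 1955 at an unadjusted p under 0.05. With 1 of the resistant libraries of day 1 left out, the day 1 difference in this fit came from the susceptible pair alone. With 1 of the susceptible libraries of day 1 left out, it came from the resistant pair alone. The lone library left in a day 1 pair was assumed to vary like the others.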

How the data were processed

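Reads of leaf RNA (TruSeq stranded mRNA libraries, 3 replicates pooled in each) were trimmed by the authors with Trimmomatic 0.36 (versions per the submitters' processing notes) and quantified with Salmon 0.9.1 against the primary transcripts of Wm82.a2.v1. The deposited values are estimated counts of each gene's primary transcript, scaled neither by depth nor by length. Because Salmon shares out reads of near-identical copies, values of duplicated genes are uncertain. Its strand setting is not given in the sources used here.

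Counts were rounded to whole numbers. The study's filter was applied, which keeps a gene once any of the 10 libraries exceeds 0.5 CPM. Folds were taken on CPM + 0.5 with TMM factors over the 4 day 1 libraries (edgeR 4.0.16 in R 4.3.3), or over all 10 where day 11 enters. Plain CPM ratios carry exact conditional binomial intervals (95%). A gene under 3 counts was taken as not detectable (between 0.104 and 0.154 CPM at day 1, on the TMM scale). Alternatives covered scaling, CPM minimum, fold, pseudocount, Kal's test on the counts of 2 libraries, DESeq2 1.42.0 and libraries left out. The models were tested on simulated data with 200 genes changed 8-fold. The model on the 4 libraries recovered 33% of them, and the 10-library fit with a cultivar by day term 92%. The fit with an inducer by cultivar term recovered 35.5%. A count of 0 called genes therefore does not mean that no gene differed.

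The genes named were, in each class and direction, the 2 with the largest fold (the smaller of the 2 folds where both pairs were called) among genes with over 10 counts in each day 1 library and a mean of at least 10 CPM. The comparison and the classes were chosen with earlier results of these data known. The contrasts of the sum of squares, the spread over levels, the all-or-none genes and the fit with an inducer by cultivar term were later choices, made with the values in view. Gene lists, cell type markers and sequences were not used, since the identifiers (0 matches) are not those of the reference table. Figures were drawn with matplotlib 3.10.9.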

Additional observations from a re-analysis of the deposited data

Results flagged for a closer look

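A total of 619 genes differed in opposite directions between inducer and control in the cultivars at day 1, with 1 library on each side. The edgeR test of the difference between the cultivars, in the 10-library fit, called 0 genes. The outcome depended on the method, since DESeq2 with the same terms called 2106 and edgeR with library totals 769. The named examples show the opposite directions on the log2 scale of CPM + 0.5. Glyma.20G065300 had 3.43 in the susceptible pair and -3.45 in the resistant pair, and Glyma.15G213600 had 3.22 and -3.20. Glyma.13G076900 had -3.57 in the susceptible pair and 3.19 in the resistant pair, and Glyma.07G051500 had -2.75 and 3.36.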

How the results depend on the processing

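Counts are given in the order higher and lower in the susceptible pair, higher and lower in the resistant pair, higher in both, lower in both, opposite, susceptible pair only and resistant pair only, and were 762, 925, 2769, 4420, 44, 293, 619, 412 and 4463. Without the 5 CPM minimum those that moved over 1.5 times were lower in the susceptible pair (1442), higher in the resistant pair (4989), higher in both (95), susceptible only (700) and resistant only (6836). Kal's test with a 2-fold minimum in place of the CPM minimum gave the same counts (1442, 4989, 95, 700 and 6836). It thus removed no gene that the fold rule kept, and it covers counting error only. A minimum of 20 CPM gave 438, 473, 1188, 18 (higher in both), 173 (lower in both), 337, 196 and 2580, with lower in the resistant pair within 1.5 times. A 4-fold minimum gave 74, 186, 917, 1100, 2, 40, 51, 55 and 956. Library totals gave 426, 1533, 6977 and 1891 in the pairs and medians of -0.19 and 0.53. The counts of the other classes stayed within 1.5 times only with their directions merged. By direction, the opposite classes went from 431 to 179 (higher susceptible, lower resistant) and from 188 to 523 (the reverse). Resistant only went from 1838 to 4635 (higher) and from 2625 to 976 (lower). Susceptible only went from 163 to 117 (higher) and from 249 to 450 (lower). Many genes left their class. Of the genes in each class with TMM, 24 of 44 (higher in both), 195 of 293 (lower in both), 179 of 431 (higher susceptible, lower resistant), 188 of 188 (the reverse), 52 of 163 and 139 of 249 (higher and lower in the susceptible pair only), and 1429 of 1838 and 758 of 2625 (higher and lower in the resistant pair only) stayed. DESeq2 size factors kept all 44 and 290 of the 293. The smaller pseudocount moved no count over 1.5 times. Opposite genes made up between 54.8% (4-fold) and 69.9% (library totals) of those called in both pairs. The sum of squares, an alternative chosen after seeing the data, was divided 31.5% (mean inducer fold), 16.0% (cultivar) and 52.5% (difference between the folds) with library totals.

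For the test of inducer against control, edgeR with library totals called 28 genes and DESeq2 67, against 0, and leaving out each library of the 10-library fit gave between 0 and 21, above 0 without either susceptible library of day 1. No named gene changed direction in a pair in which it was called. The named genes were picked for large folds, so this is no check on the direction of other genes. The test of the inducer by cultivar term, added after seeing the data, called 769 genes with library totals and 2106 with DESeq2, against 0, and 0 without each day 11 library in turn. The pairs cannot be computed without either of their libraries. The labels give no replicate numbers, and libraries were paired by labelled cultivar, which is a term of the models.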

Other observations

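Positions read from the identifiers added the following. Runs of at least 3 consecutive retained genes in 1 class numbered 25 among the genes lower in the resistant pair only (76 genes, the longest of 4), 7 among those higher in the resistant pair only (21 genes), 1 among those lower in both pairs and 1 among those lower in the susceptible pair only. In that order the classes held 7.01%, 4.91%, 0.782% and 0.665% of the retained genes. The number of runs that class size alone would give was not estimated. The run lower in both pairs, named after its values were seen, went from Glyma.11G121700 to Glyma.11G121900 on chromosome 11, with log2 folds between -2.69 and -1.0 in the susceptible pair and between -5.37 and -2.91 in the resistant pair. Chromosome 11 held 23 of the 293 genes lower in both pairs (7.85%) and 4.88% of the retained genes. It was not alone, as chromosome 13 held 29 of them (9.9%, against 7.13% of the retained genes) and chromosome 16 held 18 (6.14%, against 3.85%). Chromosome 17 held 5 of the 44 genes higher in both pairs (11.4%) and 4.89% of the retained genes, and chromosome 1 held 4 (9.09%, against 4.22%). These chromosomes were picked after their values were seen. Neighbouring genes can be copies of each other, and copies were not examined here.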
